A study of Papio anubis with 6 samples.

Results

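The circadian clock genes examined here were PER1, PER2, PER3, CRY1, CRY2, CLOCK, ARNTL, NR1D1, NR1D2 and DBP, picked by gene symbol and set around PER1. They are 10 of the 39023 genes listed in each of 2 deposited comparison tables, and all 10 had a p-value in both tables. The set was proposed with the increase of PER1 in both tables already known, so the PER1 contrasts are given below as a description of how the set was chosen and not as a test. The cells were proerythroblasts, early red cell precursors, sorted as CD105+CD34-CD117+bRBC+ cells from bone marrow aspirates of baboons (Papio anubis), where bRBC is a baboon red cell surface antigen. Long-term animals (n = 2) had received RN-1 at 0.25 mg/kg/d on 5 days a week for more than 265 days. Short-term animals (n = 2) had received the same daily dose for 3 days. Untreated control samples (n = 2) came from the same animals as the short-term samples, whereas the long-term group consisted of other animals. RN-1 inhibits LSD1, the histone demethylase encoded by KDM1A, was injected under the skin, and acts on the whole animal and not only on red cell precursors. The sources used here give neither the ages and sexes of the animals nor the clock time of each aspirate. All aspirates were drawn under anesthesia, and those of the RN-1 samples after the last injection. Both comparisons use the same 2 control samples.

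The circadian clock is a transcriptional feedback loop that runs in most cells of the body. CLOCK and ARNTL (also called BMAL1) form a pair of transcription factors that binds E-box sequences and switches on the PER and CRY genes, and the PER and CRY proteins then enter the nucleus and repress that pair. A second loop runs through the nuclear receptors NR1D1 and NR1D2 (REV-ERB alpha and beta), which repress ARNTL, while DBP is a clock output that drives other genes through D-box sequences. PER1 also responds within a cycle to signals from outside the cell, including glucocorticoids and cyclic AMP, through its own promoter. In mice, LSD1 has been described as a partner of the CLOCK and ARNTL pair. In most tissues the RNA of these genes rises and falls over the day, so a single aspirate records one phase of that cycle.

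The tables hold fold changes and mean levels but no column per sample. Because those values were exact, the number of reads behind each gene could be solved for every library, and the 2 libraries of a group are called A (the larger) and B. The tables do not say which library came from which animal. Effective library sizes, by which the CPM are scaled, were 3737700 and 3162652 in the long-term, 5270053 and 4321080 in the short-term, and 4278556 and 3372644 in the control group. Reads summed over the genes solved in all libraries were 3398627 and 3014175, 4862512 and 4096404, and 3997448 and 3156704 in the same order. Levels are given as CPM, read counts scaled to a common library size. As the kit reads 1 fragment near the 3' end of each transcript, CPM values are compared between genes without dividing by gene length. Whether the 3' end of each gene was equally well annotated and mapped was not checked. One read was worth 0.190 to 0.316 CPM depending on the library. These reads carried no molecular identifiers, so counting limits cover counting error only. In bulk RNA, a change in the number of cells of a type cannot be told apart from a change in RNA per cell. The target of RN-1, KDM1A, had 153 and 94.5 CPM in long-term libraries, 137 and 98.4 CPM in short-term libraries, and 126 and 96.4 CPM in control libraries, with no call in either comparison. Inhibiting the enzyme need not change its RNA, so this value does not check the labels.

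PER1, a repressor of the loop, was the one clock gene called in both regimens, and in each it stood above every control library. It had 289 and 136 CPM in long-term libraries, 129 and 142 CPM in short-term libraries, and 54.9 and 35.0 CPM in control libraries. The means were 213 ± 109 CPM (long-term), 135 ± 9.37 CPM (short-term) and 45.0 ± 14.1 CPM (control; SD, n = 2 each). These levels rested on 1511, 1293 and 353 reads, summed over the libraries of the long-term, short-term and control groups. The control and RN-1 libraries did not overlap in either comparison, while the short-term values lay near the lower of the long-term values. The deposited log2 fold change was 2.24 with a back-calculated SE of 0.42 in the long-term comparison, a 4.71-fold increase (95% interval 2.66 to 8.34). In the short-term comparison it was 1.62 with an SE of 0.34, a 3.08-fold increase (95% interval 1.94 to 4.90). The edgeR p-values, adjusted by Benjamini-Hochberg over each table, were 5.16e-05 and 0.000811 in the long-term and short-term tables, and these are the values that brought the gene into view. PER1 stood at place 38 of 17942 genes by p in the long-term table and at place 39 of 16355 in the short-term table.

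The spread between PER1 libraries differed by group. Library A of the long-term group had 2.13 times the level of library B, against a median difference of 1.23-fold and a 90th percentile of 1.74-fold for long-term genes between 100 and 300 CPM. The short-term libraries differed by 1.10-fold, and the control libraries by 1.57-fold, where control genes between 30 and 100 CPM had a median difference of 1.31-fold and a 90th percentile of 1.96-fold. The long-term pair thus lay beyond the 90th percentile for its level, and the other pairs did not. A limma fit to the solved reads of all 6 libraries, which does not use the animal, gave PER1 log2 fold changes of 2.17 (SE 0.42) in long-term and 1.59 (SE 0.43) in short-term samples. There the limma adjusted p-values were 0.0661 and 0.502, so the PER1 call is lost in that fit in both comparisons. With the animal as a block, in fits chosen after seeing the data, the possible pairings of control and short-term libraries (A with A, or A with B) gave limma adjusted p-values of 0.142 and 0.00440 for PER1 in the long-term and 0.802 and 0.171 in the short-term comparison. Which pairing is the true one is not known from the tables. The fit without the animal called 0.111% of 14447 genes in the long-term and 0.0692% in the short-term comparison. The blocked fits called 0.0277% (A with A) and 0.671% (A with B) in the long-term and 0% and 0.166% in the short-term comparison.

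**Figure D1:**
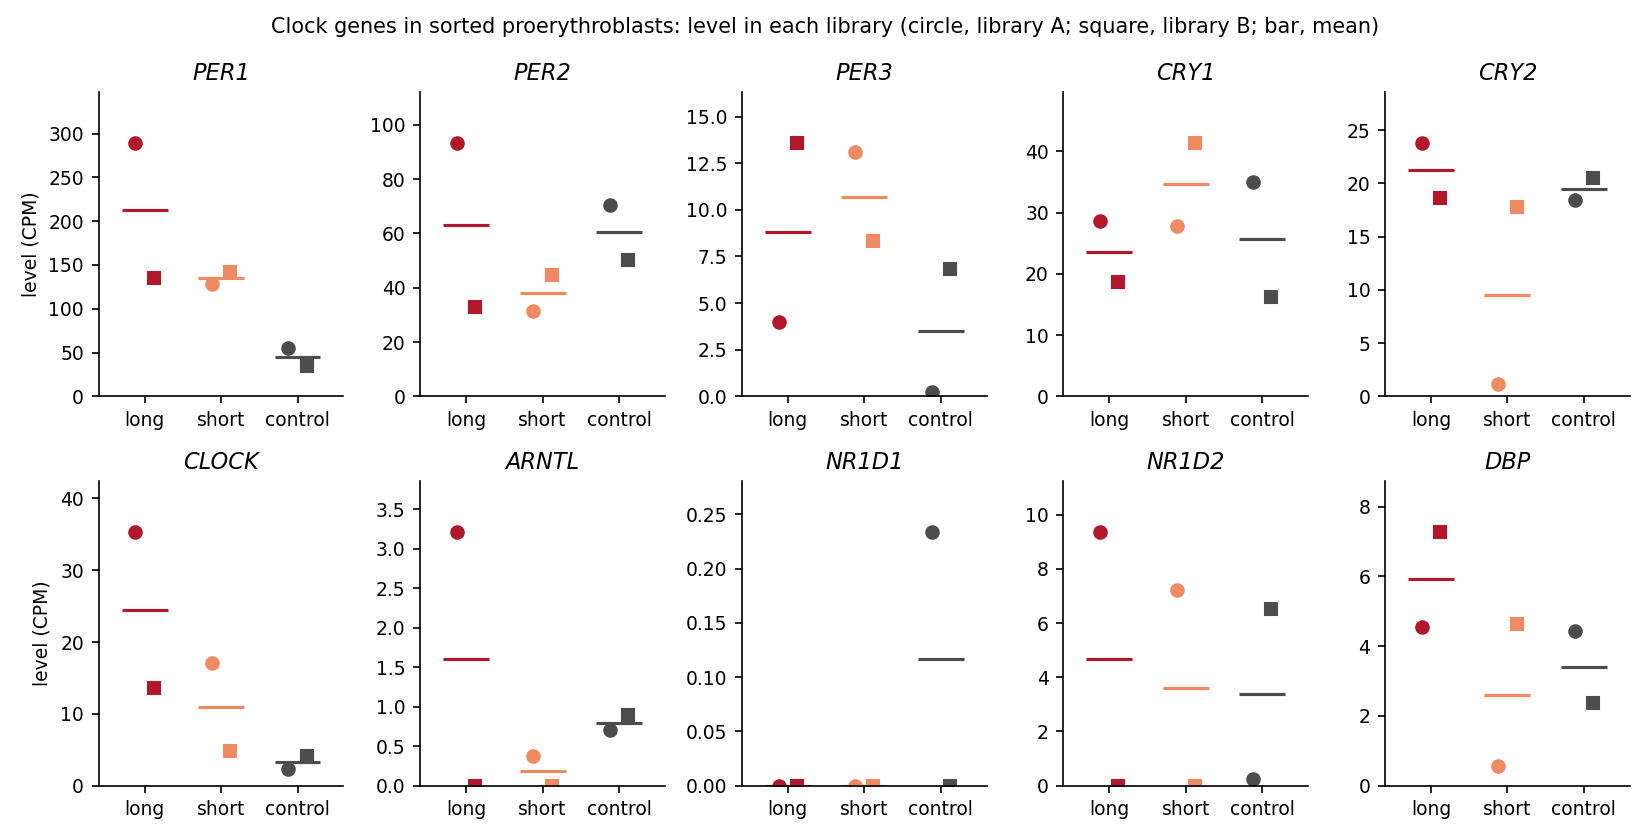
Level (CPM, linear axis from 0, one scale per gene) of each clock gene in the long-term RN-1, short-term RN-1 and control libraries, with a circle for library A, a square for library B and a bar for the mean. PER1 lies between 129 and 289 CPM in the RN-1 libraries and at 35.0 and 54.9 CPM in the controls, and CLOCK is the other gene with all 4 RN-1 libraries above both controls.

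PER2 and PER3, the other period genes, did not share a direction with PER1 that passed the test. PER2, which pairs with the CRY proteins in the repressor complex, had 93.4 and 32.9 CPM in long-term libraries, 31.5 and 44.7 CPM in short-term libraries, and 70.6 and 50.1 CPM in control libraries. The long-term libraries lay on either side of the controls, and both short-term libraries lay below them. The log2 fold changes were 0.06 (95% interval -0.77 to 0.90) in the long-term and -0.66 (95% interval -1.49 to 0.16) in the short-term comparison, with edgeR adjusted p-values of 1.00 and 0.704. The long-term interval for PER2 ends at 1.86-fold, but its SE was taken from genes of similar level. The long-term PER2 libraries differed 2.84-fold, beyond the 90th percentile of 1.97-fold for long-term genes between 30 and 100 CPM. With 1 library left out, the long-term limma log2 fold change of PER2 ran from -0.87 to 0.63, so the interval may be too narrow. PER3, a period protein that is dispensable for the rhythm in mice, was scarce, with 15 and 43 reads in long-term, 69 and 36 reads in short-term, and 1 and 23 reads in control libraries. In CPM these were 4.01 and 13.6, 13.1 and 8.33, and 0.234 and 6.82. Both short-term libraries were above both controls, but the controls themselves differed 29.2-fold. The PER3 log2 fold change was 1.32 (95% interval -1.62 to 4.26) in long-term and 2.89 (95% interval -0.32 to 6.10) in short-term samples, and neither passed (edgeR adjusted p = 1.00 and 0.704). The short-term fold depends on how the libraries are averaged, since the table averages logarithms and gives 7.42-fold, whereas the ratio of mean CPM was 3.04-fold. A single control library moved PER3 further, as its limma log2 fold change was 0.035 in long-term and 0.63 in short-term samples without control library A, and 4.35 and 4.94 without control library B.

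The cryptochromes CRY1 and CRY2, the partners of the PER proteins in the repressor complex, passed in neither comparison. CRY1, the stronger repressor of the pair in mice, had 28.6 and 18.7 CPM in long-term libraries, 27.9 and 41.4 CPM in short-term libraries, and 35.1 and 16.3 CPM in control libraries. Its libraries overlapped in both comparisons, with log2 fold changes of -0.12 (95% interval -1.31 to 1.07) and 0.51 (95% interval -0.56 to 1.57) in long-term and short-term samples. The long-term interval rests on an SE taken from genes of similar level and does not reflect the spread of CRY1 itself. CRY2 had 23.8 and 18.7 CPM in long-term libraries, 1.14 and 17.8 CPM in short-term libraries, and 18.5 and 20.5 CPM in control libraries. A single short-term library was low, with 6 reads in library A beside 77 in library B, a 15.7-fold difference within the group. The log2 fold change of CRY2 was -2.08 in the short-term comparison (unadjusted p = 0.0485, edgeR adjusted p = 0.696) and 0.12 in the long-term comparison (edgeR adjusted p = 1.00). When short-term library A was left out of the limma fit, the CRY2 log2 fold change was -0.12.

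In the activator arm CLOCK had a larger long-term log2 fold change than PER1, but on few reads, and it did not pass. CLOCK, the DNA-binding partner of ARNTL, had 35.3 and 13.6 CPM in long-term libraries, 17.1 and 4.86 CPM in short-term libraries, and 2.34 and 4.15 CPM in control libraries. All 4 RN-1 libraries were above both controls, although short-term library B exceeded the higher control by less than 1 CPM. Behind these levels were 132 and 43 reads in the long-term, 90 and 21 in the short-term, and 10 and 14 in the control libraries. The log2 fold change was 2.91 (95% interval 1.19 to 4.64) in the long-term comparison, with an unadjusted p of 0.000937 and an edgeR adjusted p of 0.101. It was 1.53 (95% interval -0.97 to 4.03) in the short-term comparison, with an edgeR adjusted p of 0.732. The limma log2 fold change of CLOCK was 2.12 without long-term library A and 3.49 without long-term library B in the long-term comparison, and 0.65 without short-term library A and 2.44 without short-term library B in the short-term comparison. CLOCK was the uncalled member nearest to the threshold, at place 167 by p in the long-term table. ARNTL, its partner, was close to the limit of detection, with 12 and 0 reads in long-term, 2 and 0 reads in short-term, and 3 and 3 reads in control libraries. In the long-term group all ARNTL reads came from library A (3.21 CPM), and the log2 fold change of 0.99 had a 95% interval of -6.20 to 8.17 and was -0.30 in the limma fit. No short-term fold is given, since neither group exceeded 3 reads in any library. At these depths a change in ARNTL was not detectable.

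The REV-ERB arm and DBP were at low levels in every group. NR1D1 had no reads in the long-term and short-term libraries and 1 read in 1 control library, so it was not measurable. A count of 0 allows up to 3 reads, which is 0.803 and 0.949 CPM in long-term libraries, 0.569 and 0.694 CPM in short-term libraries, and 0.890 CPM in control library B. NR1D2, the other heme-binding repressor of ARNTL, had 35 and 0 reads in long-term, 38 and 0 reads in short-term, and 1 and 22 reads in control libraries. In each group 1 library held nearly all NR1D2 reads. The log2 fold changes were 0.48 (long-term) and -1.09 (short-term), with SEs of 1.83 and 2.83. The long-term SE was taken from genes of similar level and does not reflect the spread of NR1D2 itself. The sign of the short-term value depends on the averaging, as the ratio of mean CPM was 1.07. DBP, the D-box activator, had 4.55 and 7.27 CPM in long-term libraries, 0.569 and 4.63 CPM in short-term libraries, and 4.44 and 2.37 CPM in control libraries. The long-term DBP libraries were above both controls, with the lower one exceeding the higher control by less than 1 read's worth of CPM, and the short-term libraries overlapped with the controls. DBP had log2 fold changes of 0.78 (SE 1.52) in long-term and -0.95 (SE 2.08) in short-term samples, neither of which passed (edgeR adjusted p = 1.00 and 0.919).

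**Figure D2:**
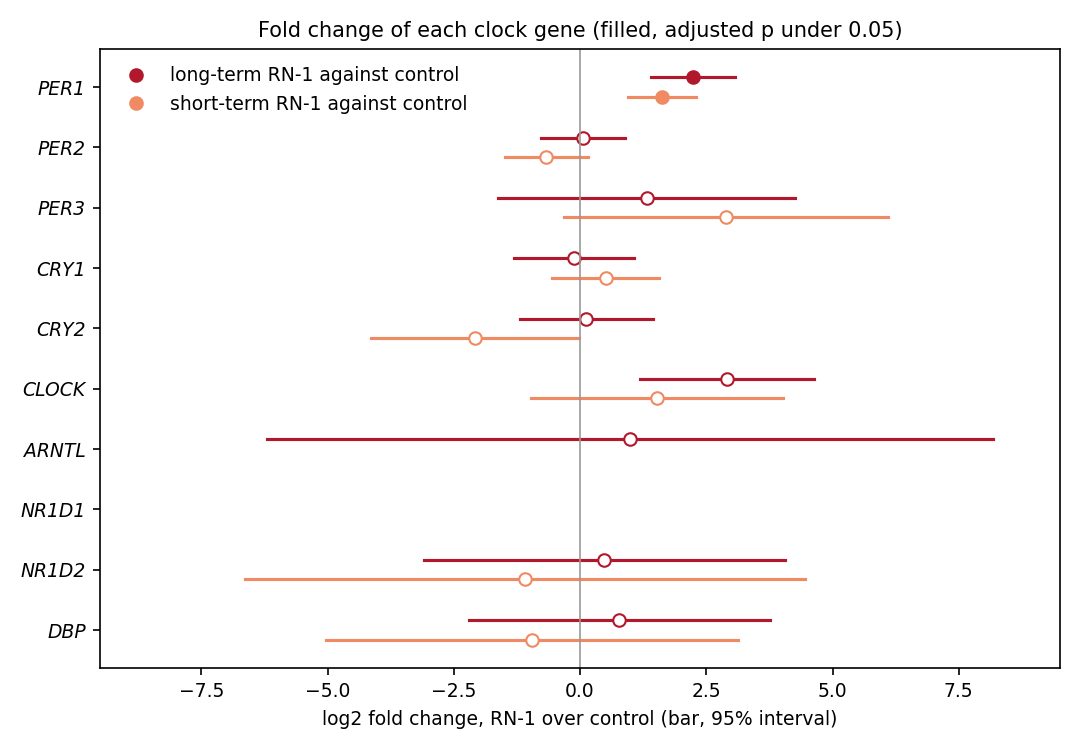
Log2 fold change of each clock gene over control (points) with its 95% interval (bars), for long-term RN-1 above short-term RN-1. The long-term intervals of PER2, CRY1, CRY2 and NR1D2 use SEs taken from genes of similar level. Filled points mark an adjusted p under 0.05. Only the PER1 points, at 2.24 and 1.62, are filled. NR1D1, and ARNTL in the short-term comparison, are left out because no library exceeded 3 reads.

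In the long-term comparison 1 of the 10 members was called as increased and 0 as decreased, where 0.663% of all 17942 genes tested were called as increased and 0.106% as decreased. In the short-term comparison the member counts were also 1 and 0, against 0.495% and 0.153% of 16355 genes. As PER1 was part of how the set was chosen, these counts describe the set and carry no further weight. At an unadjusted p under 0.05, PER1 and CLOCK were increased in long-term samples, where 3.59% of genes were increased and 1.82% decreased. In short-term samples PER1 was increased and CRY2 decreased at that level, where 4.26% of genes were increased and 2.85% decreased. Long-term libraries lay above both controls for PER1, CLOCK and DBP and below them for 0 members, where 18.3% of genes were above and 13.4% below. Short-term libraries lay above both controls for PER1, PER3 and CLOCK, and below them for PER2, CRY2 and ARNTL, where 15% of genes were above and 14.7% below. Among members with over 3 reads in some library, the median log2 fold change was 0.78 over 9 genes in the long-term and -0.08 over 8 genes in the short-term comparison. The medians over all genes with that many reads were 0.08 and 0.02. The member medians given here include PER1, which was part of how the set was chosen, so they only describe the set. The long-term value of 0.78 was that of DBP, whose SE was 1.52. ARNTL entered the long-term median through the reads of library A alone. Over all 10 members, which takes in genes at a few reads whose fitted values depend on the prior count, the medians were 0.63 in the long-term and -0.81 in the short-term comparison, beside 0.05 and 0.01 over all genes tested.

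The difference between the regimens, long-term minus short-term, was tested from the fold changes and their SEs over all 16353 genes with a p-value in both tables, of which 0.0122% were called. None of the 10 members passed (adjusted p of 1.00 for each by Benjamini-Hochberg, with 0 at an unadjusted p under 0.05). The limma contrast called 0 of all 14447 genes, so its 0 carries no information on the members. There CRY2 alone had an unadjusted p under 0.05, at 0.0301, with a contrast of 2.38 on the log2 scale that was 0.26 without short-term library A. For PER1 the difference was 0.61 on the log2 scale (SE 0.54, 95% interval -0.45 to 1.67). The limma contrast of PER1 between the regimens was 0.58 with all libraries, 0.01 without long-term library A and 1.10 without long-term library B, so a single library sets whether PER1 looked higher after the long regimen. For CLOCK the difference was 1.38 (95% interval -1.65 to 4.42), and for CRY2 it was 2.20 (95% interval -0.25 to 4.65). These intervals leave room for sizeable differences in either direction for CLOCK. The test ignores that both fold changes share the same controls.

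**Figure D3:**
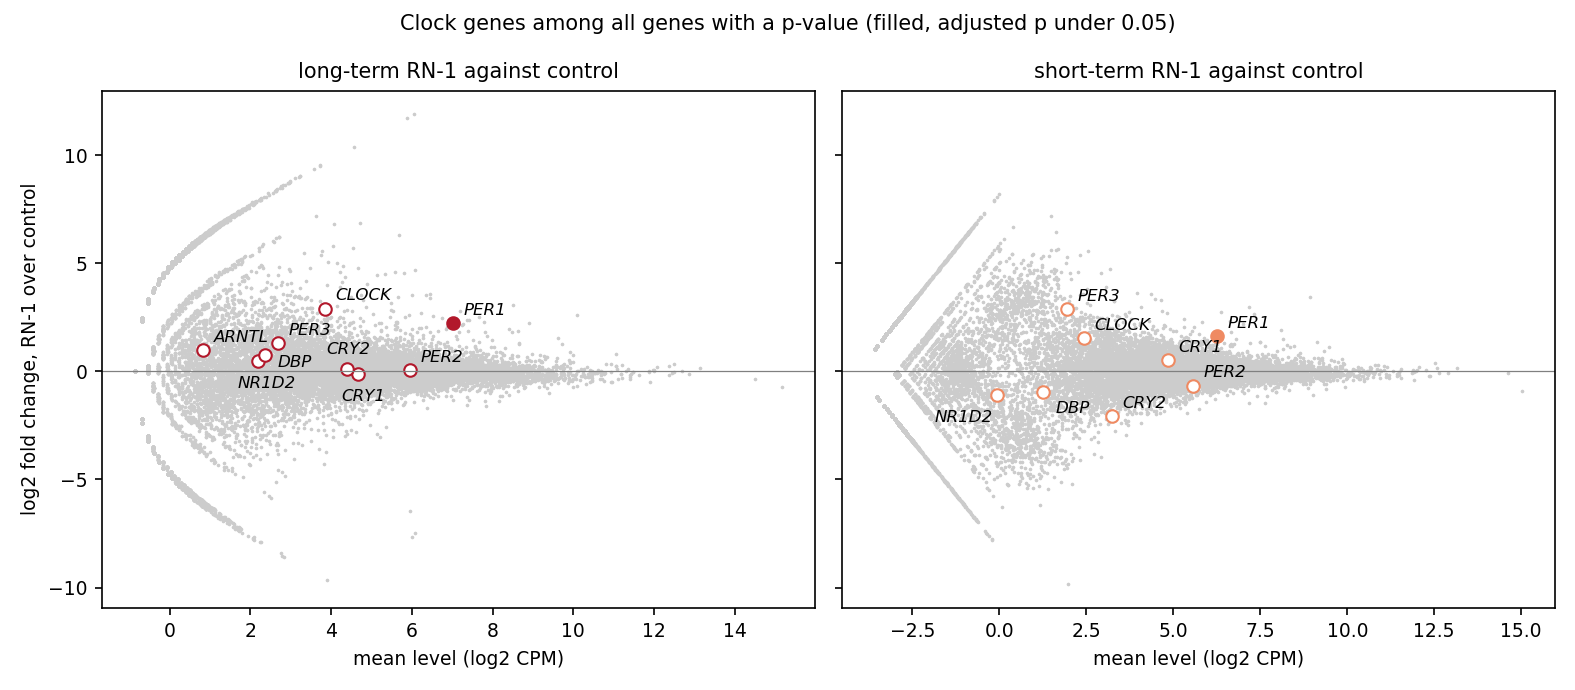
Log2 fold change over control against mean level (log2 CPM, as deposited) for every gene with a p-value (grey), with clock genes marked, for long-term RN-1 (left) and short-term RN-1 (right). PER1 lies at the high-level end of the clock genes, at a mean level of 7.02 and 6.27, while CLOCK and PER3 lie at lower levels, where all genes scatter more widely. NR1D1, and ARNTL in the short-term panel, are not marked.

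PER1 and PER2 were the first and second clock genes by mean level in each group, in an order that differed between groups. PER2 led in control libraries with 60.3 ± 14.5 CPM, followed by PER1 with 45.0 ± 14.1, CRY1 with 25.7 ± 13.3 and CRY2 with 19.5 ± 1.41 CPM (SD, n = 2). PER1 and PER2 ranges overlapped there, as did those of CRY1 and CRY2. In short-term libraries PER1 led with 135 ± 9.37 CPM, ahead of PER2 with 38.1 ± 9.31 and CRY1 with 34.7 ± 9.57 CPM, the last pair overlapping. In long-term libraries PER1 was at 213 ± 109 CPM and PER2 at 63.1 ± 42.8 CPM, and CLOCK came next at 24.5 ± 15.4 CPM, overlapping with CRY1 and CRY2. CLOCK was at place 8 of the 10 members in control libraries, at 3.24 ± 1.28 CPM. PER3, NR1D2 and DBP stayed below 15 CPM in each library, and ARNTL below 4 CPM.

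Beyond the core members, 55 further clock genes were listed by their known roles, of which 53 are named in the tables, 47 had a p-value in the long-term and 46 in the short-term comparison. In long-term samples 0 of the 47 were called in either direction by edgeR, where 0.663% of all genes were called as increased and 0.106% as decreased. At an unadjusted p under 0.05, 2 were increased and 2 decreased, where 3.59% and 1.82% of all genes were. In short-term samples 0 of 46 were called as increased and 1, BTRC, as decreased, beside 0.495% and 0.153% of all genes. BTRC, a subunit of the ubiquitin ligase that marks phosphorylated PER proteins for breakdown, had 32.4 and 25.9 CPM in short-term libraries, against 89.7 and 105 CPM in control libraries. Both short-term libraries were well below the controls, with a log2 fold change of -1.74 (SE 0.39, edgeR adjusted p = 0.00229). In long-term libraries BTRC had 32.1 and 78.1 CPM, a log2 fold change of -0.83 that did not pass (edgeR adjusted p = 0.991).

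Kinases that phosphorylate PER proteins showed no call. CSNK1D (casein kinase 1 delta) had 42.8 and 30.4 CPM in long-term libraries and 43.8 and 87.2 CPM in short-term libraries, against 56.6 and 85.1 CPM in control libraries. Both long-term values were below the controls, with a log2 fold change of -0.95 (edgeR adjusted p = 0.809). CSNK1E (casein kinase 1 epsilon) had 11 and 2 reads in long-term, 14 and 28 reads in short-term, and 0 and 2 reads in control libraries, too few for a call. Over the kinases, phosphatases and ligases with more than 3 reads, the median log2 fold change was 0.17 in long-term and 0.08 in short-term samples (17 genes each). Over the 19 chromatin and RNA-binding partners it was 0.28 in long-term and 0.20 in short-term samples, with 0 called in either.

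Factors that bind the same DNA elements as the clock had few reads, and none was called. ARNTL2, which can replace ARNTL, had 28 and 2 reads in long-term, 37 and 0 in short-term, and 60 and 15 in control libraries. NFIL3, a repressor acting on D-boxes, had 22 and 0 reads in long-term, 22 and 0 in short-term, and 0 and 0 in control libraries. Neither passed, and in each RN-1 group a single library held nearly all of the reads of both genes. TEF had 22 and 2 reads in long-term libraries and at most 2 in each other library, and HLF had 1 read in all. The ROR receptors compete with REV-ERB proteins at the ARNTL promoter. RORA had between 1 and 5 reads per library. NPAS2, BHLHE40, BHLHE41 and CIART are listed without a p-value and were not analysed here.

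**Figure D4:**
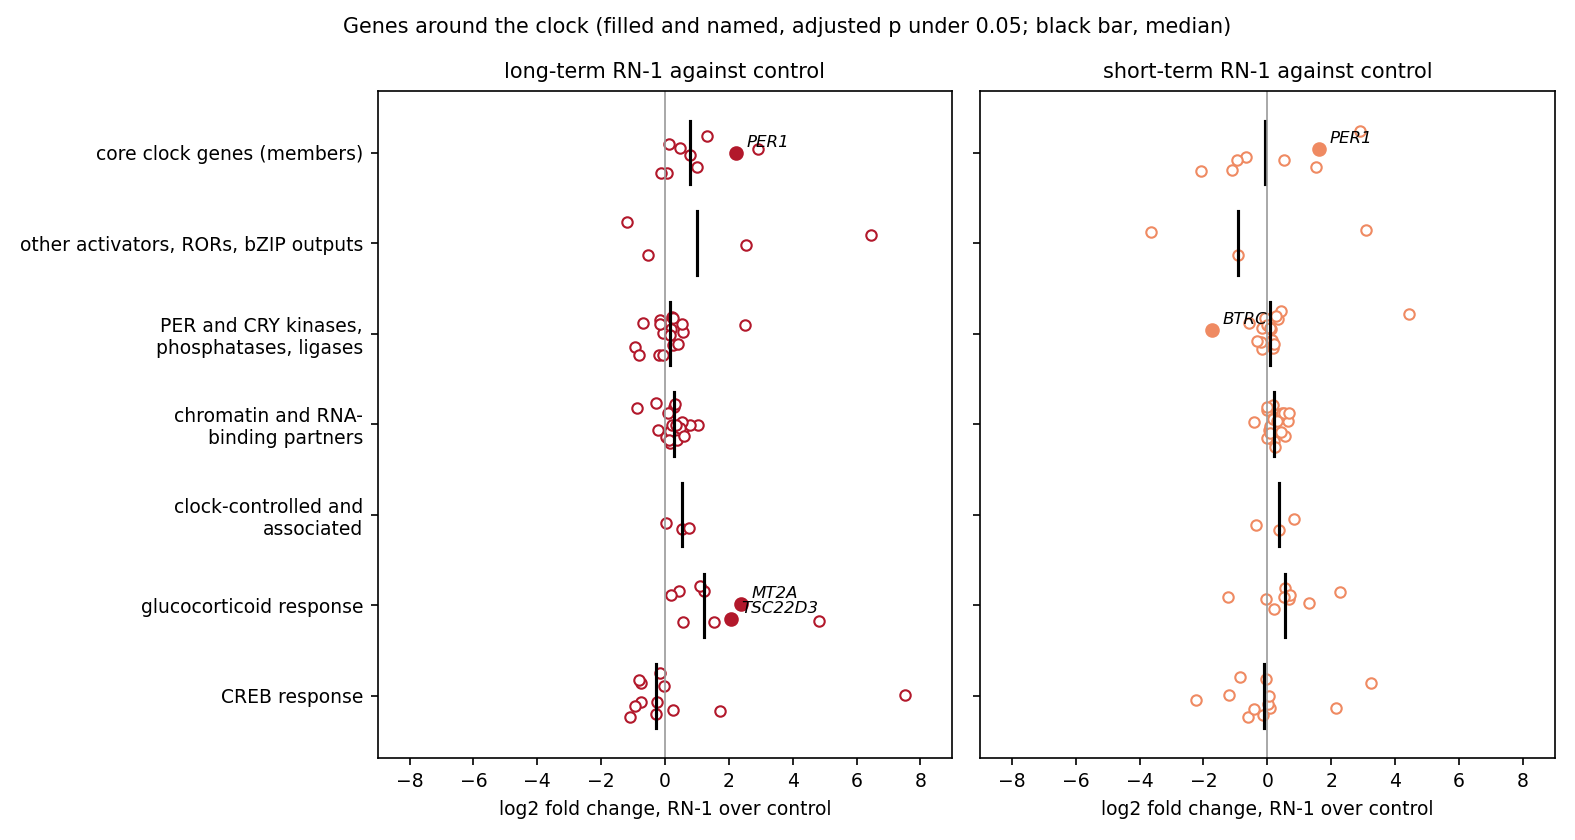
Log2 fold change over control of the members and of further genes grouped by role, for long-term RN-1 (left) and short-term RN-1 (right), with 1 point per gene that had over 3 reads in some library and a black bar at the median. Filled, named points have an adjusted p under 0.05, namely PER1, MT2A and TSC22D3 in long-term and PER1 and BTRC in short-term samples.

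Genes that respond to glucocorticoids are given beside PER1, itself a known member of that response. In long-term samples 2 of 11 with a p-value were called as increased and 0 as decreased, beside 0.663% and 0.106% of all genes. In short-term samples 0 of 10 were called in either direction, beside 0.495% and 0.153%. The median log2 fold change of those with over 3 reads was 1.23 in long-term and 0.55 in short-term samples (9 genes each), and 1.15 in long-term samples with SGK1, which had no control reads, set to its bound of 3 reads over the group. TSC22D3 (GILZ), a leucine zipper protein induced by glucocorticoids, had 114 and 45.5 CPM in long-term and 29.4 and 55.8 CPM in short-term libraries, against 27.8 and 9.78 CPM in control libraries. Library A was the higher of the long-term pair, as for PER1, PER2, CRY1, CRY2, CLOCK, ARNTL and NR1D2, while PER3 and DBP were higher in library B. All RN-1 libraries were above both controls, though short-term library A (29.4 CPM) was close to control library A (27.8 CPM). Over all genes, 18.3% lay above both controls in the long-term and 15% in the short-term comparison. The TSC22D3 log2 fold change was 2.07 in long-term (SE 0.56, edgeR adjusted p = 0.0317) and 1.29 in short-term samples (SE 0.55, edgeR adjusted p = 0.509). MT2A, a metal-binding metallothionein, had 239 and 311 CPM in long-term and 14.4 and 126 CPM in short-term libraries, against 94.4 and 9.49 CPM in control libraries. Its long-term log2 fold change was 2.40 (SE 0.61, edgeR adjusted p = 0.0136), and its control libraries were far apart. NR3C1, the glucocorticoid receptor, had 76.3 and 48.4 CPM in long-term and 34.7 and 50.5 CPM in short-term libraries, against 22.4 and 30.8 CPM in control libraries, without a call (edgeR adjusted p = 0.458 and 0.704 for long-term and short-term). FKBP5 was not analysed here. Whether glucocorticoid exposure or the handling of the animals had a part in the PER1 values was not tested.

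Genes that respond to cyclic AMP through CREB, another known input to PER1, had no call in either comparison. Of 15 with a p-value, 0 were called in either comparison by edgeR, where 0.663% (long-term) and 0.495% (short-term) of all genes were called as increased and 0.106% and 0.153% as decreased. At an unadjusted p under 0.05, 1 was increased and 1 decreased in long-term samples, beside 3.59% and 1.82% of all genes, and 0 and 3 in short-term samples, beside 4.26% and 2.85%. Their median log2 fold change was -0.27 in long-term and -0.09 in short-term samples over the 12 genes with more than 3 reads. JUNB, an immediate early transcription factor, had 161 and 274 CPM in long-term and 165 and 346 CPM in short-term libraries, against 633 and 294 CPM in control libraries. Control library A was high, and the JUNB log2 fold changes of -1.10 and -0.85 in long-term and short-term samples did not pass (edgeR adjusted p = 0.275 and 0.0602). FOS, an immediate early gene named after its values were seen, varied more within than between groups, with 459 and 325 CPM in long-term and 250 and 695 CPM in short-term libraries, against 681 and 246 CPM in control libraries.

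The erythroid identity of the cells was checked with 12 markers, of which 11 had a p-value. Summed over the 9 with solved reads, the level was 4032 to 6756 CPM in long-term, 4955 to 5466 CPM in short-term and 5433 to 5543 CPM in control libraries. The low value belonged to long-term library A, the library with the highest PER1. SLC4A1 weighed most in it, with 1388 CPM in long-term library A and 3073 CPM in long-term library B. KIT (237 and 198 CPM) and ENG (95.8 and 83.2 CPM) were higher in long-term library A than in B, and the remaining solved markers were lower. CD34, which the sort excluded, had no p-value. Among erythroid markers, the hemoglobin subunit gene HBB was called in short-term samples, with a log2 fold change of -0.92 (edgeR adjusted p = 0.00127), and in long-term samples it was -0.71 without a call. TAL1, a transcription factor of early blood cells, had unadjusted p-values of 0.0409 and 0.00502 in long-term and short-term samples, with log2 fold changes of 0.95 and 1.09. Among the markers of other cells, HDC and ENPP3 were called, in the long-term comparison only. Of 8 mast cell and basophil markers, HDC and ENPP3 had reads, summing to 43.6 and 44.3 CPM in long-term and 14.0 and 1.62 CPM in short-term libraries, and to 0 in both control libraries. HDC, which makes histamine, and ENPP3, a basophil surface enzyme, had edgeR adjusted p-values of 0.000523 and 1.18e-06 in long-term and 0.704 and 0.409 in short-term samples, while MS4A2 and FCER1A, which build the IgE receptor, and CPA3 had no p-value. The 8 of 11 monocyte and macrophage markers with a long-term p-value summed to 23.8 and 39.5 CPM in long-term, 32.8 and 2.55 CPM in short-term, and 11.7 and 8.60 CPM in control libraries. VCAN alone had 10.1 and 8.60 CPM in control, 13.4 and 6.96 in long-term, and 4.17 and 0.231 in short-term libraries. CD163, C1QB and C1QC had 0 reads in both control libraries, where CD68 had 6 and 0 and C1QA 1 and 0. In long-term libraries CD163, C1QB and C1QC had 11 and 36, 5 and 15, and 1 and 31 reads. In short-term libraries they had 24 and 0, 19 and 0, and 26 and 10 reads, without a call in either comparison. C1QA had 13 and 4 reads in long-term and 78 and 0 in short-term libraries, where library A held 14.8 CPM of it. CD68 had 6 and 15 reads in long-term and 4 and 0 in short-term libraries, and neither gene was called. The 3 of 9 granulocyte, 4 of 8 megakaryocyte and 1 of 8 lymphoid markers with a long-term p-value summed to at most 5.38, 13.9 and 0.949 CPM in any library, and the other markers of these lists did not enter the sums. The part of such cells in the PER1 and CLOCK values was not tested.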

How the data were processed

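RNA from sorted baboon proerythroblasts (2 samples in each of 3 groups) was sequenced from the 3' end of transcripts, keeping strand. Alignment (BWA MEM, baboon build Panu_2.0), counting per gene (featureCounts) and testing (edgeR) were done by the authors, versions not given in the sources used here. Their model held the animal for short-term samples, while long-term samples were set directly against the controls. The deposited log2 values are log2 fold changes and mean log2 CPM. The deposited p-values and q-values were computed by the authors.

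The members and all gene lists were chosen with earlier results of these data known. The p-values were adjusted again by Benjamini-Hochberg over each table (within 1.61e-14 of the q-values) and called under 0.05. The text names every member, list genes called in either comparison or with an unadjusted p under 0.05 in both, and a fixed set of clock and glucocorticoid genes, some of which are not reported here. Standard errors were back-calculated from fold change and p-value under a normal statistic, and for p of at least 0.8 taken as the median of 201 genes of similar level. The test of the difference between regimens used these errors.

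Reads were solved from the mean levels and fold changes, given prior counts of 0.25 (short-term table) and 2 with a dispersion of 0.05 (long-term table), and genes with 0 or 1 read fixed the library sizes. Whole reads within a relative tolerance of 5e-14 (short-term) or 5e-09 reads (long-term) were found for 99.9% of genes in each group, and 17921 genes were solved in all 6 libraries. Control sizes from the 2 tables differed by -0.364% and 0.0229%. Solving and tests were checked on simulated data. Solved reads were also fitted with limma 3.58.1 (voom, R 4.3.3) over 14447 genes with at least 10 summed reads. Blocked fits took both possible pairings of control and short-term libraries. edgeR itself was not run here, because the deposited values are not counts. All 10 members matched the RefSeq table of Panubis1.0 by symbol, which is another build, so no coordinates or sequences are given. The libraries of a group came from separate animals.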

Additional observations from a re-analysis of the deposited data

How the results depend on the processing

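With thresholds of 0.01 and 0.1, a minimum log2 fold change of 1, a floor of 0 or 2 on the mean log2 CPM, and the Benjamini-Yekutieli method, 1 member (PER1) was called in each comparison. The limma fits to solved reads and the ratios of mean CPM were chosen after seeing the data. The limma fit without the animal called 0 members in both, and the cause was not tested. Its long-term log2 fold changes of PER2, ARNTL and NR1D2, at -0.074, -0.30 and -0.16, have the opposite sign to the deposited ones, none of them called. The tables do not tie libraries to animals, so the replicate block was fitted in limma for both possible pairings of control and short-term libraries. It called 0 members (A with A) and 1, PER1 at a log2 fold change of 2.16 (A with B), in the long-term comparison, where it called 4 and 97 of 14447 genes, and 0 under either pairing in the short-term comparison, where it called 0 and 24. Against the limma fit without the block, NR1D2 had the opposite sign, at 0.21 (A with A) and 0.055 (A with B) in long-term and 0.10 (A with A) in short-term samples. Its ratio of mean CPM in short-term samples, 0.094 on the log2 scale, had the opposite sign to the deposited value. For want of that tie the planned removal of replicates was run only in the limma fit, where 0 members were called without any one library. Those fits called 0 of all genes in each comparison with control, except 1 without long-term library B in the long-term comparison, so the 0 carries no information on the members. The PER1 log2 fold change was 1.59 to 2.69 in long-term and 1.30 to 1.94 in short-term samples. Without one library, log2 fold changes that reversed in some fit spanned -0.87 to 0.63 (PER2), -0.57 to 0.52 (CRY1), -0.048 to 0.30 (CRY2), -2.54 to 1.87 (ARNTL) and -3.17 to 2.73 (NR1D2) in long-term samples. In short-term samples they spanned -0.066 to 1.03 (CRY1), -3.59 to 2.38 (NR1D2) and -2.39 to 0.44 (DBP). None of these was called. Median-ratio library sizes called 0 members as well. Of 14447 genes they called 12 as increased and 3 as decreased in the long-term, and 8 and 2 in the short-term comparison. CLOCK came nearest to a change of call, with an adjusted p of 0.0797 and 0.0578 in the long-term comparison at floors of 0 and 2. The difference between regimens called 0 members under each of its alternatives, among them the limma contrast, which called 0 of all 14447 genes. The PER1 group levels moved by less than 1 SD. Of the values with one library left out, 12 changed sign and 108 did not. The 108 include the counts of members called, which carry no information as stated above. Of the other alternative values 133 kept direction and side of the threshold or moved by less than their error, 7 changed sign, 2 gained and 4 lost the threshold. The gains and losses count PER1 both as a call and as a fold change. With 2 libraries a group, under 50 reads per group for ARNTL, NR1D1, NR1D2 and DBP and few for PER3, only large changes of these genes could be seen.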
